A study of Rattus norvegicus with 21 samples.

Results

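The genes described here are the microglia-biased transcripts of rat spinal cord that were lower after neomycin in every replicate pair of sorted microglia. They are 179 of the 32883 Ensembl gene IDs in the count files. A member had a mean of at least 10 CPM (a gene's count as a share of all counts in its library, rescaled) in microglia from PBS-treated rats, and at least 4 times its mean in total cord from PBS-treated rats. Its log2(CPM + 1) value was also lower with neomycin than with PBS at the same replicate number in all 4 microglia pairs, by a mean of at least 0.3. The first condition kept 8383 IDs, the bias towards microglia kept 1776 of these, and 451 of the 1776 were lower in all 4 pairs. The drop in neomycin microglia and the bias towards microglia are thus given as a description, since the members were chosen by them.

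The animals, LEW/Crl rats of wild-type genotype, were 6 to 8 weeks old. They received PBS, the buffer control, neomycin (NEO) or vancomycin (VANCO) by the intratracheal route for 7 days, and the study asked what such dosing does in the central nervous system. Spinal cord freed of myelin on a Percoll gradient was either kept whole (total cord; 3 libraries per treatment, numbered 1, 2 and 3) or stained and sorted for CD45low CD11b+ cells (microglia; 4 libraries per treatment, numbered 1, 2, 3 and 5). Whether each library is 1 animal or several pooled is not in the labels, and the p-values therefore describe only how far these libraries scatter, which may be technical. CD11b is also carried by other myeloid cells, so the gate rests on low CD45 as well. The sort could not be checked against marker genes here, because the files list IDs without gene names, and the gene table at hand recognised 0 of the 32883.

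Microglia are the resident macrophages of the brain and spinal cord. They survey the tissue, clear debris and synapses, and change their gene expression quickly in response to injury, infection and handling. Neomycin, an aminoglycoside that acts on bacterial ribosomes, and vancomycin, a glycopeptide that blocks bacterial cell wall synthesis, differ in the bacteria they reach. In RNA from many cells, fewer cells of a type and less RNA per cell cannot be told apart.

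Library totals ran from 9020480 to 22435887 counts in the 12 microglia libraries and from 16769410 to 25114844 in the 9 cord libraries. The members received between 170069 and 1103006 counts per microglia library and between 40009 and 55171 per cord library. NEO replicate 2 of the microglia stood apart. The 954 IDs at least 64-fold higher in cord took 2.49% of its counts, against 0.0335% to 0.0920% in the other NEO microglia libraries. PBS replicate 2 (0.288%) and VANCO replicate 2 (0.285%) were also higher in these IDs than the other libraries of their groups, whose values lay between 0.0351% and 0.103%. The part of such cord RNA in the members' values was not tested, and the main microglia results are also given without number 2.

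Neomycin microglia gave the members a smaller share of their counts than PBS microglia did. In PBS microglia the 179 members together took 6.91%, 2.78%, 3.74% and 4.03% of the counts of replicates 1, 2, 3 and 5. In NEO microglia the shares were 5.72%, 1.57%, 3.13% and 3.11%. The share was lower in NEO at each number, as the rule requires, but the spread between numbers within a treatment was wider than the gap between treatments, and the groups overlapped. VANCO microglia had 5.82%, 2.57%, 3.77% and 3.55%, lower than PBS at numbers 1, 2 and 5 and slightly higher at number 3. The other 1597 microglia-biased IDs took 41.6%, 38.9%, 42.0% and 42.5% in PBS and 42.4%, 33.9%, 43.5% and 43.4% in NEO, and so were lower in NEO than in PBS only at number 2. In total cord the members took 0.220% to 0.256% in all 9 libraries.

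The members were moderately abundant genes, and their ratio of microglia to cord was higher than in the other microglia-biased IDs. Their mean in PBS microglia had a median of 103 CPM and ran from 12.1 to 5912 CPM, and their median in PBS cord was 8.51 CPM. These are shares of reads, which also rise with transcript length. The ratio of microglia to cord had a median of 11.96 (4.01 to 391), against 8.49 in the other microglia-biased IDs. Of the 306 microglia-biased IDs with a ratio of 32 or more, 49 were members (16.01%), against 8.09% of the 828 with a ratio from 4 to 8. The PBS microglia libraries set both the ratio and the drop, so the choice of members favours a higher ratio. By abundance, members made up 8.83% of the microglia-biased IDs below 30 CPM, 9.53% from 30 to 100 CPM, 11.7% from 100 to 300 CPM and 9.63% at 300 CPM or more. Counts were concentrated in few members, with 13.5% of the members' counts in PBS microglia in the most abundant one, 44.6% in the first 10 and 77.2% in the first 50.

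The drop after neomycin was modest for nearly all members. The mean of the 4 pair differences had a median of -0.41 on the log2(CPM + 1) scale, with quartiles of -0.51 and -0.35. It was -0.5 or lower in 49 members and below -1 in a single member, at -1.76; the next was at -0.92. The 3 members just inside the threshold had means of -0.3025, -0.3035 and -0.3039, and the 3 microglia-biased IDs just outside it, also lower in all 4 pairs, had -0.2996, -0.2993 and -0.2987. The threshold therefore cuts through a continuous run of values: 272 further microglia-biased IDs were lower in all 4 pairs by a smaller mean. In the opposite direction 196 microglia-biased IDs were higher in all 4 pairs, 73 of them by a mean of at least 0.3, which is 4.11% of the 1776 against 10.1% for the members.

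Pair 2 carried much of that size. The members' median difference was -0.29 in pair 1, -0.82 in pair 2, -0.31 in pair 3 and -0.24 in pair 5, while that of the other microglia-biased IDs was -0.01, -0.08, -0.00 and -0.01. The largest of a member's 4 drops fell in pair 2 for 139 members, and in pairs 1, 3 and 5 for 16, 14 and 10. A drop of at least 0.3 was seen in 168 members in pair 2 but in 88, 96 and 67 in pairs 1, 3 and 5, and in all 4 pairs in 29. A drop of at least 0.1 in all 4 pairs was seen in 127. Over pairs 1, 3 and 5 alone the members' mean difference had a median of -0.30 and ran from -1.80 to -0.06; 88 members (49.2%) then still reached -0.3, and 42 lay above -0.2. Applying the rule without number 2 gave 101 IDs, of which 88 were members.

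**Figure D1:**
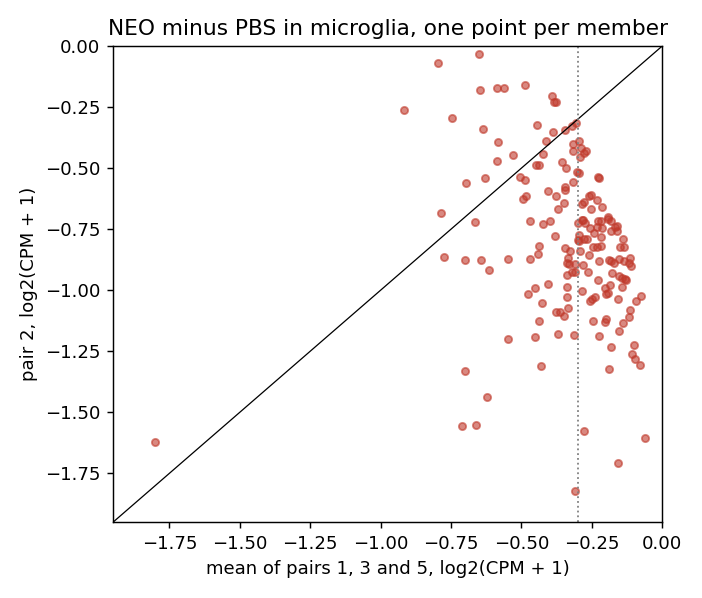
NEO minus PBS in microglia for each of the 179 members, on the log2(CPM + 1) scale: the mean of pairs 1, 3 and 5 (x axis) against pair 2 (y axis), with the line of equality and a dotted line at -0.3. Most points lie below the line of equality, since 139 members had their largest drop in pair 2, and 88 lie at or left of the dotted line.

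The contrast of neomycin with PBS in microglia chose the members, so its calls are listed only to show their size. In edgeR's quasi-likelihood test with Benjamini-Hochberg adjustment, 1 of the 179 members was called lower (adjusted p below 0.05). Among the 12570 IDs tested, 5 were called (0.0398%), 4 of them higher and 1 lower. With the replicate number as a block, 17 members were called lower, against 94 of 12570 in either direction (0.748%) and 27 lower (0.215%). Leaving out NEO replicate 2, with the block, called 64 members and 300 IDs in all, and leaving out all number 2 libraries called 49 members and 211 IDs, so calls rose over all IDs as well. Meanwhile the members' median log2 fold change moved from -0.39 to -0.28 under either. Leaving out another library called fewer: 2 without NEO replicate 3, 3 without PBS replicate 3, 4 without PBS replicate 1, 7 without PBS replicate 5, 8 without NEO replicate 1 or PBS replicate 2, and 12 without NEO replicate 5, with 26 to 53 IDs called in all. Leaving out all libraries of number 1, 3 or 5 called 1, 0 and 2 members, against 20, 0 and 19 IDs. Without the block, the median was -0.36 with all libraries and -0.21 without NEO replicate 2. All 4 NEO values lay below all 4 PBS values in 17 members, against 86 of the 8383 IDs with at least 10 CPM (1.03%). Without number 2 the groups did not overlap in 66 members (36.9%), against 550 of the 8383 (6.56%).

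The members with the lowest adjusted p in the blocked test, ENSRNOG00000013963 and ENSRNOG00000017869, fell by similar amounts in every pair. They were picked by the contrast that chose the members, and the blocked test favours even differences. Their evenness over pairs and the separation of NEO from PBS are therefore given as a description. ENSRNOG00000013963 was at 782, 711, 1057 and 1097 CPM in PBS microglia replicates 1, 2, 3 and 5 (912 ± 194, mean ± SD, n = 4). In NEO microglia it was at 479, 390, 580 and 648 CPM (524 ± 113, n = 4), so that every NEO value lay below every PBS value. In VANCO microglia it was at 634, 673, 849 and 925 CPM (770 ± 139, n = 4), between the other groups on average and overlapping both. Its 4 NEO minus PBS differences were -0.71, -0.86, -0.86 and -0.76 on the log2(CPM + 1) scale, so pair 2 did not stand out. The edgeR log2 fold change was -0.79 (SE 0.08, adjusted p = 0.00220) with the block and -0.79 (SE 0.17, adjusted p = 0.261) without it.

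ENSRNOG00000017869 was at 1049, 818, 988 and 976 CPM in PBS microglia (958 ± 98.6, n = 4). In NEO microglia it was at 610, 445, 617 and 623 CPM (574 ± 86.2, n = 4), again all below PBS. The VANCO values of 846, 747, 790 and 857 CPM (810 ± 51.2, n = 4) lay above all NEO values and overlapped PBS. Its edgeR log2 fold change against PBS was -0.73 (SE 0.11, adjusted p = 0.0497) without the block, the one member called there, and -0.73 (SE 0.08, adjusted p = 0.00331) with it. The unpaired call was lost with RLE factors (adjusted p = 0.0507), with no filter on low counts (0.157) and on leaving out each library except NEO replicate 2 (0.115 to 0.208). It was kept by DESeq2 (adjusted p = 1.61e-09) and limma-voom (0.0465).

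In total cord these IDs were far lower and did not pass a test. ENSRNOG00000013963 averaged 76.2 ± 12.7 CPM in PBS, 70.1 ± 12.5 in NEO and 76.4 ± 11.2 in VANCO cord (SD, n = 3 each). ENSRNOG00000017869 was at 20.3, 21.1 and 20.2 CPM in PBS cord and at 13.1, 22.4 and 13.1 in NEO cord, lower at numbers 1 and 3 and higher at number 2. Its log2 fold change in cord was -0.33 (SE 0.19; edgeR adjusted p = 1.000).

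**Figure D2:**
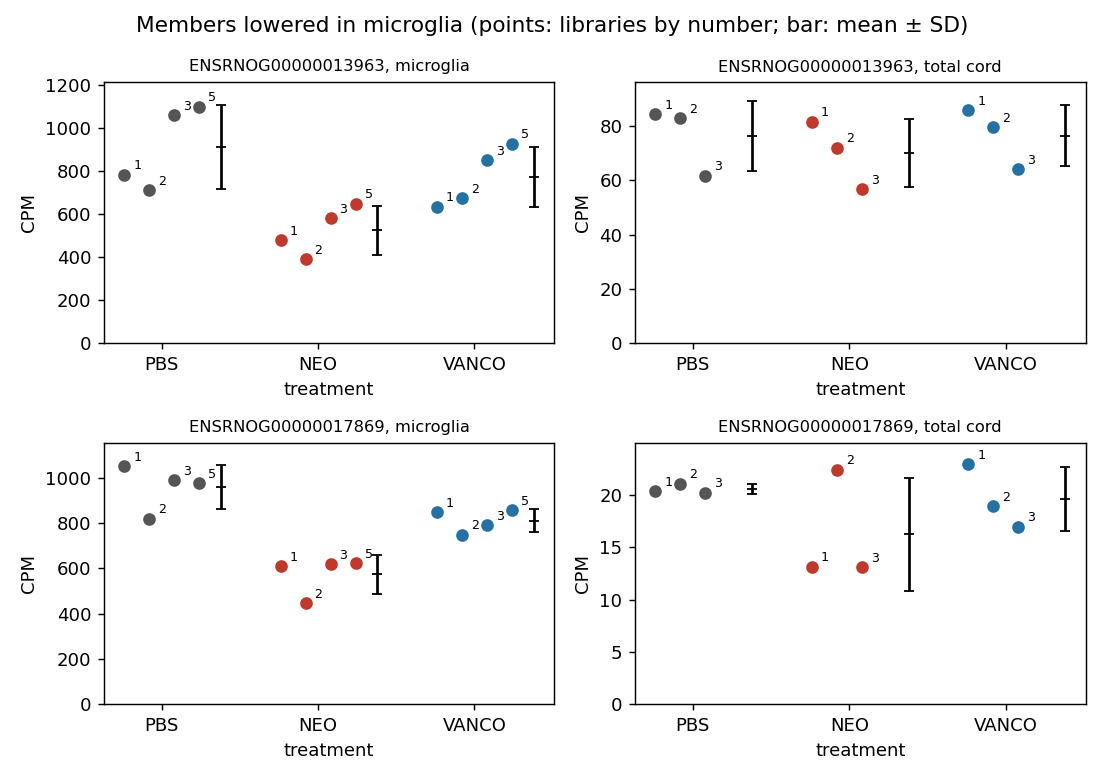
CPM of the members with the lowest adjusted p, in each microglia library (left) and cord library (right), by treatment and labelled by replicate number, with the mean ± SD beside each group. In microglia, where the IDs were picked, every NEO point lies below every PBS point for both IDs, while in cord the groups overlap.

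Vancomycin gave the members small differences in the same direction, none of which passed a test. This comparison shares its PBS libraries with the rule, so its direction is not independent of how the members were chosen. The members' VANCO minus PBS medians were -0.15, -0.07, -0.06 and -0.22 at numbers 1, 2, 3 and 5 on the log2(CPM + 1) scale, against 0.02, 0.04, 0.02 and -0.03 for the other microglia-biased IDs. In edgeR the members' median log2 fold change was -0.13 (quartiles -0.19 and -0.09), against 0.01 over all 12570 IDs. No ID was called by edgeR, with the block (0%) or without it (0%). DESeq2 called 0 members, among 5 IDs called without the block and 38 with it. Limma-voom called 0 members, with the block or without it.

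The neomycin and vancomycin microglia, which share the NEO libraries with the rule, differed by a median of -0.23 over the members (edgeR log2 fold change, quartiles -0.31 and -0.18), against -0.01 over all IDs. That median was -0.06 without NEO replicate 2. The differences by number had medians of -0.16, -0.74, -0.25 and -0.03 at numbers 1, 2, 3 and 5. At number 5 the members spread around that value with quartiles of -0.21 and 0.10. Without the block edgeR called 0 of the 179 members and 0 of 12570 IDs (0%), with 20 and 269 at an unadjusted p below 0.05. DESeq2 called 1 member, among 16 IDs called in all, and limma-voom called 0. With the block edgeR called 1 member, lower in NEO, against 21 of 12570 (0.167%), and 11 members among 75 IDs without NEO replicate 2. The 1 member was ENSRNOG00000013963, at a log2 fold change of -0.55 (SE 0.08, adjusted p = 0.0285; without the block -0.54, SE 0.17, adjusted p = 0.999). With the block, that call was kept without NEO replicate 1 (adjusted p = 0.0496) or NEO replicate 2 (0.000748) and lost on leaving out each of the other 6 libraries (0.0819 to 0.191).

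**Figure D3:**
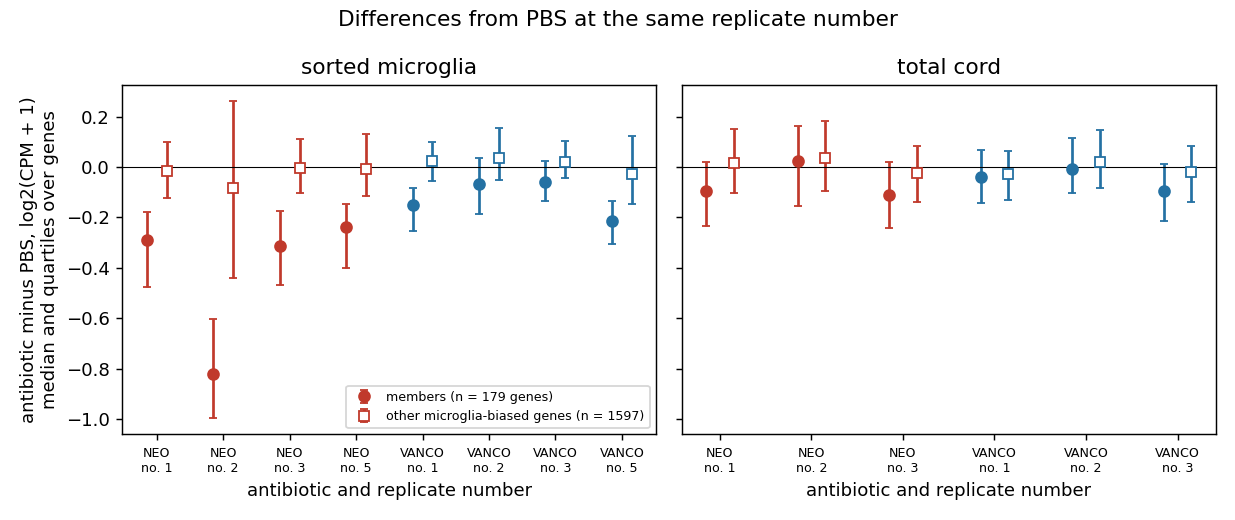
Antibiotic minus PBS at the same replicate number, as the median (points) and quartiles (bars) over genes on the log2(CPM + 1) scale, for the members (filled) and the other microglia-biased IDs (open), in microglia (left) and total cord (right). In microglia the members lie lowest in NEO pair 2, at -0.82, and in cord their medians lie between -0.11 and 0.02.

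The members differed more between replicate numbers than between treatments. Number 2 had the lowest value of its treatment in 131 of the 179 members in PBS, 162 in NEO and 123 in VANCO, and in 63.5%, 63.8% and 64.9% of the other microglia-biased IDs. Averaged over treatments, the members lay at 0.14, -0.41, 0.06 and 0.13 from their own mean at numbers 1, 2, 3 and 5 (medians, log2(CPM + 1) scale), and the other microglia-biased IDs at 0.06, -0.22, 0.04 and 0.09. Of a member's variation over the 12 microglia libraries, a median of 57.6% lay between numbers and 23.5% between treatments, the second of which the rule favours. For the other microglia-biased IDs the medians were 67.2% and 7.67%. Without number 2 the medians were 49.8% and 31.2% for the members, and 60.3% and 14.02% for the others. What the number stands for, such as a litter, a sorting day or a library batch, is not stated in the labels.

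Within the members, 23 genes stood far above their own mean at number 1, by more than 1 on the log2(CPM + 1) scale averaged over the treatments. The threshold was chosen after the values were seen. They were 12.8% of the members, while 30 of the 1597 other microglia-biased IDs (1.88%) passed the same threshold. They held 44.4% of the members' counts in PBS microglia, and their ratio of microglia to cord had a median of 66.7, against 10.3 for the remaining 156 members. PBS replicate 1 entered both the choice of these genes and the PBS microglia mean. The choice therefore favours a high share and a high ratio, which are given as a description.

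These 23 genes, chosen for high values at number 1, held most of the unevenness of the members' share between numbers. Together they took 4.34%, 0.721%, 1.27% and 1.42% of the counts in PBS replicates 1, 2, 3 and 5. In NEO they took 3.65%, 0.366%, 1.15% and 0.921%, and in VANCO 3.49%, 0.576%, 1.44% and 1.27%. Number 1 was the highest library in all 3 treatments, which the choice of these genes favours. Number 2, which the choice did not name, was the lowest in all 3. NEO was below PBS at each number, as the rule requires, while the ranges of the treatments overlapped.

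The remaining 156 members were steadier, which follows in part from setting the 23 aside. They took 2.57%, 2.05%, 2.48% and 2.61% of the counts in PBS (2.43 ± 0.255, SD, n = 4) and 2.06%, 1.20%, 1.98% and 2.19% in NEO (1.86 ± 0.446, n = 4). NEO replicates 1 and 5 reached the low end of the PBS range, which PBS replicate 2 sets, and NEO replicates 2 and 3 lay below it. VANCO gave 2.34%, 1.99%, 2.33% and 2.28% (2.23 ± 0.164, n = 4), within or just under the PBS range. Without number 2 the means were 2.55 ± 0.0693 in PBS, 2.08 ± 0.104 in NEO and 2.31 ± 0.0308 in VANCO (SD, n = 3 each). The rule requires the lower NEO share at each number, and setting the 23 aside favours a small SD, so this separation is only a description. The mean of the 4 NEO minus PBS pairs had a median of -0.54 in the 23 and -0.41 in the 156.

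**Figure D4:**
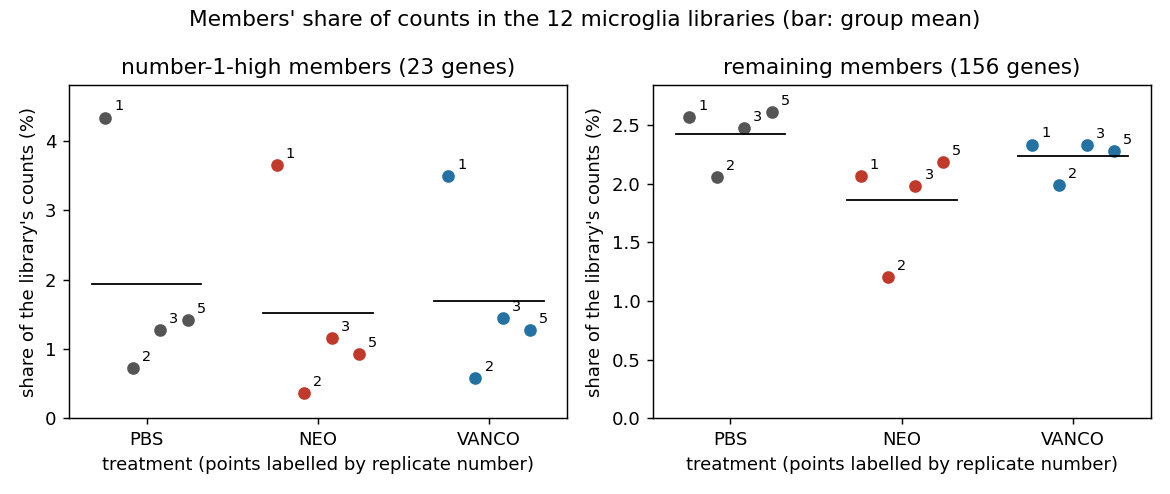
Share of each microglia library's counts (%) taken by the 23 members highest at number 1 (left) and by the remaining 156 (right), by treatment, with points labelled by replicate number and a bar at the group mean. On the left number 1, by which these genes were chosen, lies at 3.49% or more in every treatment and the others at 1.44% or less. On the right PBS lies at 2.05% to 2.61% and NEO at 1.20% to 2.19%, lower at each number as the rule requires.

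How far the members moved together depended on number 2. Their Pearson correlation with the members' mean profile over the 12 libraries had a median of 0.84; it was above 0.8 in 105 of 179 and below 0 in 1. Over the 9 libraries without number 2 the median was 0.61, with 35 members above 0.8 and 1 below 0. The profile over 12 libraries was lowest in NEO replicate 2 and highest in PBS replicate 1. The 3 IDs outside the members with the most similar profile had r of 0.991, 0.987 and 0.977, and none was microglia-biased by the rule. Their means were 77.2, 103 and 53.2 CPM in PBS microglia and 26.0, 67.7 and 75.2 CPM in PBS cord. All 3 were also lower with neomycin in every microglia pair, which a similar profile favours. Their mean NEO minus PBS differences were -0.463, -0.386 and -0.293 on the log2(CPM + 1) scale, the last just short of the threshold. The drop was thus not confined to microglia-biased IDs, and how many IDs without the bias shared it was not counted. The libraries behind the correlations share their number and the selected drop, so the correlations only describe the set.

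Total cord holds microglia among all other cells of the tissue, and its libraries took no part in the rule apart from the PBS mean that sets the bias. Over all 179 members, without any filter, the NEO minus PBS difference in cord had a median of -0.08 on the log2(CPM + 1) scale (quartiles -0.15 and 0.02). The mean was below 0 in 125 members (69.8%), against 48.7% of the other microglia-biased IDs and 54.4% of the 8383 IDs with at least 10 CPM in PBS microglia. The medians by number were -0.10, 0.02 and -0.11, so number 2 did not share the lower values. All 3 pairs were lower in 46 members (25.7%) and higher in 11 (6.15%), against 13.3% and 17.8% of the other microglia-biased IDs. Over the 8383 IDs these shares were 16.4% and 14.1%. All NEO values lay below all PBS values in 14 members (7.82%), against 244 of the 8383 IDs with at least 10 CPM in PBS microglia (2.91%).

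Few of these differences passed a test. Of the 174 members with enough counts in cord, edgeR called 0 against PBS without the block, and 0 of all 14677 IDs (0%), with 12 and 400 at an unadjusted p below 0.05. DESeq2 called 1 member, higher, among 26 IDs called in all, and limma-voom called 0. With the block, edgeR called 1 member, and it was higher in NEO, against 100 of 14677 (0.681%). Without the number 2 libraries, with the block, 14 were called, 3 higher and 11 lower, among 398 IDs called in all. Leaving out NEO replicate 3 called 3, all higher, among 82 IDs. Leaving out NEO replicate 2 or PBS replicate 3 called 2, among 76 and 57 IDs, of which 1 was lower without NEO replicate 2.

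The comparison of neomycin with vancomycin in cord rests on 6 libraries the rule did not use. The members' difference had a median of -0.03 over all 179 (quartiles -0.11 and 0.05). The mean was below 0 in 108 (60.3%), against 45.5% of the other microglia-biased IDs and 52.4% of the 8383 IDs with at least 10 CPM in PBS microglia. By number the medians were -0.05, 0.01 and -0.02. All NEO values lay below all VANCO values in 9 members (5.03%), against 2.34% of the 8383 IDs, and above them in 7 (3.91%), against 3.52%. Without the block edgeR called 0 of 174 members and 0 of 14677 IDs (0%), with 10 and 331 at an unadjusted p below 0.05. DESeq2 called 1 member, among 25 IDs called in all, and limma-voom called 0. With the block edgeR called 2 members, both higher in NEO, against 64 of 14677 (0.436%). Leaving out NEO replicate 1 called 0 members among 43 IDs, and leaving out NEO replicate 2 called 2, both lower, among 55. Leaving out all of number 2 called 6, with 4 higher and 2 lower, among 129 IDs.

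The 2 members called in cord were higher with neomycin there, and both belong to the 23 that were highest at number 1. Their lower values in neomycin microglia are required by the rule, and edgeR called neither of them there, with the block or without it. They are named because they passed the cord test, after their values were seen. ENSRNOG00000003977 was at 39.3, 50.2 and 28.2 CPM in NEO cord (39.2 ± 11.04, n = 3), at 16.4, 17.3 and 14.7 CPM in PBS cord (16.1 ± 1.30, n = 3) and at 14.1, 22.5 and 17.8 CPM in VANCO cord (18.1 ± 4.23, n = 3). Every NEO value lay above every PBS and VANCO value. The log2 fold change with the block was 1.27 against PBS (SE 0.14, edgeR adjusted p = 0.00351) and 1.10 against VANCO (SE 0.13, adjusted p = 0.00855). Without the block the values were 1.29 (adjusted p = 0.152) and 1.10 (adjusted p = 0.333), and DESeq2 without the block called both (adjusted p = 4.15e-06 and 0.000304). With the block, the call against PBS held on leaving out each library, while that against VANCO was lost without NEO replicate 1 (adjusted p = 0.0551), NEO replicate 2 (0.0584) or VANCO replicate 2 (0.116).

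In microglia the same gene varied more between numbers than between treatments. ENSRNOG00000003977 was at 7356, 965, 2377 and 2192 CPM in PBS replicates 1, 2, 3 and 5, at 6695, 622, 2288 and 1548 CPM in NEO and at 5824, 743, 2925 and 2094 CPM in VANCO. The NEO minus PBS differences were -0.14, -0.63, -0.06 and -0.50 on the log2(CPM + 1) scale. They just met the rule, with a mean of -0.33, and the edgeR log2 fold change was -0.18 (SE 0.83, adjusted p = 0.977) without the block, where leaving out a library moved it between -1.11 and 0.63, and -0.32 (SE 0.14, adjusted p = 0.350) with it. The difference between its changes in cord and microglia was not tested.

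ENSRNOG00000058388 showed a like profile with a smaller rise. It was at 20.9, 19.8 and 13.7 CPM in NEO cord (18.2 ± 3.90, n = 3), at 13.7, 12.6 and 13.95 CPM in PBS cord (13.4 ± 0.702, n = 3) and at 11.2, 13.5 and 11.5 CPM in VANCO cord (12.1 ± 1.26, n = 3). All NEO values lay above all VANCO values, but NEO replicate 3 lay within the PBS range. Against VANCO the log2 fold change was 0.57 with the block (SE 0.11, edgeR adjusted p = 0.0202) and 0.58 without it (adjusted p = 0.546), and against PBS it was 0.43 with the block (SE 0.11, adjusted p = 0.0978). The call against VANCO was lost on leaving out NEO replicate 1 (adjusted p = 0.151), NEO replicate 2 (0.132), VANCO replicate 1 (0.262) or VANCO replicate 3 (0.0700). In microglia it was at 3212, 593, 1036 and 1167 CPM in PBS replicates 1, 2, 3 and 5, at 2566, 387, 928 and 946 CPM in NEO and at 2598, 510, 1271 and 1124 CPM in VANCO. The edgeR log2 fold change of NEO against PBS in microglia was -0.29 (adjusted p = 0.945) without the block and -0.34 (adjusted p = 0.254) with it.

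**Figure D5:**
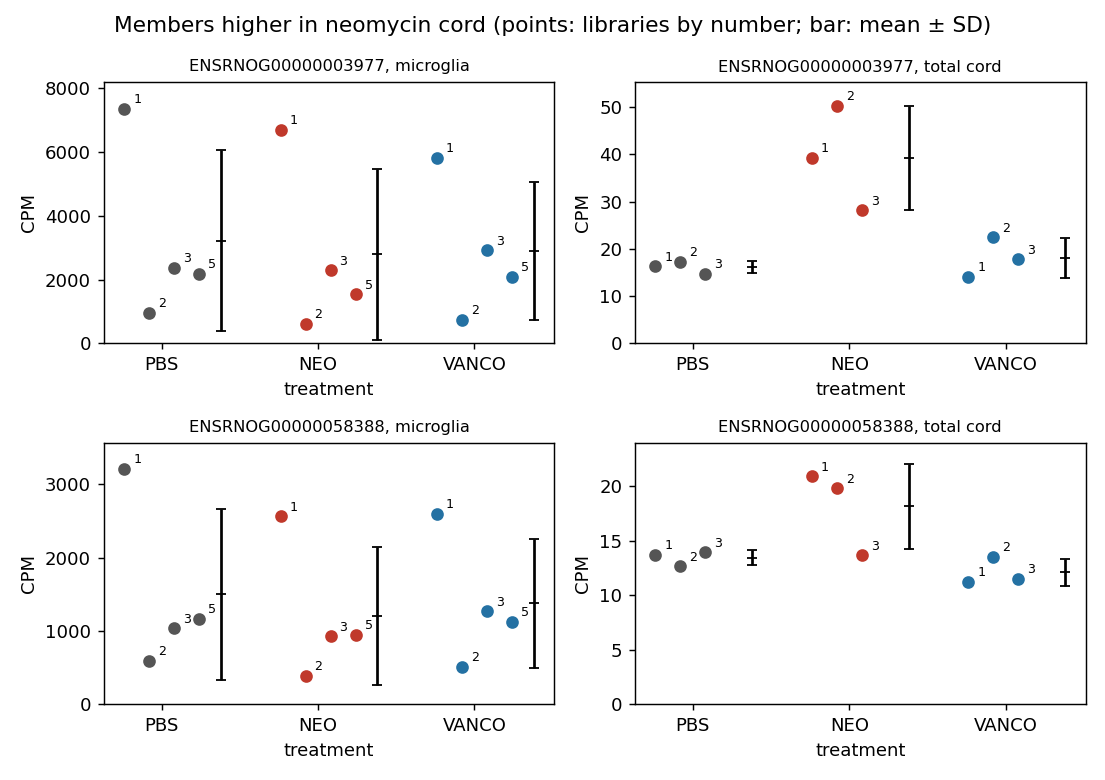
CPM of the members called higher in neomycin cord, in each microglia library (left) and cord library (right), by treatment and labelled by replicate number, with the mean ± SD beside each group. In microglia number 1 is the highest point in every treatment, and in cord the NEO points of ENSRNOG00000003977, at 28.2 to 50.2 CPM, lie above all others, which end at 22.5 CPM.

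Vancomycin and PBS cord showed a lean of the same kind as neomycin and PBS cord, which share the PBS libraries. Over the 179 members the median VANCO minus PBS difference was -0.04 on the log2(CPM + 1) scale, with medians by number of -0.04, -0.01 and -0.10. The mean was below 0 in 126 members (70.4%), against 53.0% of the other microglia-biased IDs and 53.3% of the 8383 IDs with at least 10 CPM in PBS microglia. All 3 pairs were lower in 38 members (21.2%) and higher in 9 (5.03%), against 13.96% and 8.77% of the other microglia-biased IDs. Over the 8383 IDs these shares were 13.6% and 8.54%. In edgeR 0 of 174 members were called, and 0 of 14677 IDs (0%) without the block and 1 with it (0.00681%). DESeq2 and limma-voom called 0 members, with the block or without it.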

How the data were processed

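RNA-seq libraries from sorted microglia (12) and total cord (9) were used. The deposited files hold raw counts per Ensembl gene ID. The authors worked with the rn6 build and with featureCounts 1.5.0-p1, STAR 2.5.2a and bcl2fastq 2.20.0.422, per the submitters' processing notes. The sources used here give neither strand setting nor annotation release, so overlapping, antisense and near-identical genes are uncertain. No symbols were matched, so gene lists, marker genes, positions and sequences were not used here. The members and lists were chosen with earlier results of these data known.

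CPM used file totals. The printed IDs are the members with the lowest adjusted p for NEO against PBS in microglia with the block, and those raised in cord, the latter chosen after their values were seen. Counts were tested with edgeR 4.0.16 in R 4.3.3 (filterByExpr, TMM factors, quasi-likelihood test, Benjamini-Hochberg adjustment over all IDs tested, threshold 0.05), in a model for each tissue. Alternatives were a replicate block, DESeq2 1.42.0, limma 3.58.1 with voom, RLE factors, no count filter and leaving out libraries. Replicate numbers pair the libraries by the data alone. Deviations from group means correlated at 0.273 to 0.853 between same-number microglia libraries (12 pairs). Between microglia libraries of different numbers they correlated at -0.589 to 0.291 (36 pairs), so the ranges overlap. In cord the same-number pairs lay at 0.458 to 0.630 (9 pairs) and the others at -0.527 to -0.0459 (18 pairs). These correlations arise partly by construction. The block lowered the biological coefficient of variation in microglia from 33.3% to 13.7%, and in cord from 12.1% to 5.88%. No libraries held identical counts.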

Additional observations from a re-analysis of the deposited data

Results flagged for a closer look

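Each group of 4 microglia libraries was searched for a library far from the other 3, in 24 combinations of group and measure. Chance can flag some of these, and the combinations are not independent, since the measures come from the same libraries. The search flagged 4, all at replicate 2. The share of counts from cord-enriched IDs was 2.49% in NEO replicate 2, with the other NEO libraries at 0.0335% to 0.0920%, and 0.288% in PBS replicate 2, with the others at 0.0757% to 0.103%. The share of the other microglia-biased IDs was 33.9% in NEO replicate 2, against 42.4% to 43.5%. The level of ENSRNOG00000017869 was 445 CPM in NEO replicate 2, against 610 to 623 CPM. ENSRNOG00000003977 differed in direction between the tissues: NEO minus PBS was above 0 in all 3 cord pairs (mean 1.20 on the log2(CPM + 1) scale) and below 0 in all 4 microglia pairs (mean -0.33), the latter required by the choice of members. The difference between the tissues was not tested.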

How the results depend on the processing

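The choice of members gave 112 IDs at an 8-fold bias and 101 to 259 on leaving out a number, the fewest without number 2; TMM sizes gave 161, and centring each pair on the median of the microglia-biased IDs, chosen after seeing the data, gave 120. Members called in NEO against PBS microglia numbered 1 without the block (of 5 IDs called in all) and 6 with DESeq2 (of 66). They numbered 0 with RLE factors (of 2), 0 with no count filter (of 9) and 0 to 3 on leaving out a library (of 0 to 15). With the replicate block they were 17 (of 94 IDs called in all), 24 with limma-voom (of 109), 67 with DESeq2 (of 314), 2 to 64 on leaving out a library (of 26 to 300; 12, 4 and 7 without NEO replicate 5, PBS replicate 1 and PBS replicate 5), and 1, 49, 0 and 2 without numbers 1, 2, 3 and 5 (of 20, 211, 0 and 19). For NEO against VANCO microglia the block gave 1 in place of 0 (of 21 IDs called in all). DESeq2 gave 1 (of 16), limma-voom with the block 3 (of 30) and DESeq2 with the block 16 (of 84). Leaving out a library with the block gave 0 to 11 (of 1 to 75), and leaving out number 2 or 5 with it gave 10 (of 59) or 1 (of 3). In cord, NEO against PBS gave 1 with the block (of 100 IDs called in all) and 1 with limma-voom and the block (of 95). DESeq2 gave 1 with the block (of 57) and 1 without it (of 26). Leaving out a library with the block gave 1 to 3 (of 57 to 89). Without numbers 1, 2 and 3 the block gave 1, 14 and 2 (of 78, 398 and 59). NEO against VANCO cord gave 2 with the block (of 64 IDs called in all), 1 with DESeq2 (of 25), and 2 with DESeq2 or limma-voom and the block (of 41 and 66). Leaving out a library with the block gave 0 to 3 (of 36 to 64). Without numbers 1, 2 and 3 the block gave 1, 6 and 3 (of 42, 129 and 52). Leaving out libraries or numbers with the block, and DESeq2 and limma-voom with it, were chosen after seeing the data. VANCO against PBS called 0 members in either tissue under every alternative run. The log2 fold changes kept their sign in every alternative run for the printed IDs in the comparisons where they were called, but the cord calls did not keep one direction, as the report gives for libraries of number 2 left out. The cause of these shifts was not tested. Of the 179 members, 5 had too few counts in cord to be tested there.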
